A study of Mus musculus with 338 samples.

Results

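Fatty acid oxidation genes were followed in RNA from isolated mouse pancreatic islets. The 36 genes were taken by symbol from a list of the enzymes, carriers and regulators of the mitochondrial and peroxisomal pathways. All 36 were found among the 21382 genes of the count table, and all 36 were among the 16498 genes that passed a filter on low counts. They comprised 13 mitochondrial enzymes, 8 peroxisomal enzymes, 1 enzyme found in both organelles (Ech1), 1 peroxisome division gene (Pex11a), 10 genes of fatty acid uptake and activation, and 3 regulators of transcription.

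The 6 strains were 129S2/SvPas, A/J, AKR/J, BALB/cJ, C57Bl/6J and DBA/2J, all inbred. They were fed a diet high in fat and sugar (HFHS) or regular chow (RC), and islets were taken at day 2, 10, 30 or 90. Each library came from 1 mouse, 172 on HFHS and 166 on RC, and the 48 groups of strain, diet and day held 4 to 11 mice. The mice carried no engineered allele that the labels name, and age and sex are not given in the sources used here.

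Fatty acids enter cells with the help of CD36 and the fatty acid transport proteins, are bound by fatty acid binding proteins and are activated to acyl-CoA by acyl-CoA synthetases. In mitochondria, acyl-CoA dehydrogenases, a hydratase, a hydroxyacyl-CoA dehydrogenase and a thiolase shorten the chain in a repeated cycle, and the first step passes electrons through electron transfer flavoprotein to the respiratory chain. Peroxisomes run a similar cycle on very long and branched chains, starting with an oxidase, and PPARα and its relatives switch on many genes of both cycles. Beta cells are known for releasing insulin in response to glucose, and fatty acids are known to modulate that release.

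The libraries differed in base composition, and unevenly between groups. Between 9526926 and 50751894 reads were assigned to genes per library (median 25989180). In 37 libraries from 14 groups, counts followed the GC content of the genes by more than 0.5 log2 units per 10 percentage points, which is called the GC bound here; in 35 of the 37, GC-rich genes were low. These libraries were uneven between diets, with 11 on HFHS and 5 on RC at day 2, and 3 and 3, 0 and 2, and 4 and 9 at the following days. They included every BALB/cJ library on HFHS at day 2. For 9 libraries, all beyond the bound, genes specific to a strain matched another strain than the labelled one. The insulin genes took from 0.24 to 43.6% of the reads of a library. For these reasons the main results are given in up to 3 ways: from all libraries, with a GC curve per library as an offset in the fit, and from the 301 libraries within the bound, where the mean at day 2 covers the 5 strains other than BALB/cJ. The part of GC content in a given difference was not tested beyond these values.

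Levels of the 36 genes spanned 3 orders of magnitude when CPM, counts scaled to library size, were divided by transcript length. Hadh, the short-chain hydroxyacyl-CoA dehydrogenase that is known for restraining insulin release, was the highest, with a median of 415 CPM per kilobase and a middle range of 376 to 443 CPM per kilobase over the 301 libraries. Phyh, which starts the breakdown of the branched phytanic acid in peroxisomes, followed at 77.7 CPM per kilobase, and Etfb, a subunit of electron transfer flavoprotein, stood at 67.1 CPM per kilobase. Ech1, an isomerase of unsaturated chains, stood at 38.4, Acadvl, the very long chain acyl-CoA dehydrogenase, at 35.2, and Hadha, the α subunit of the trifunctional protein, at 31.2 CPM per kilobase. Hadhb, the β subunit of that protein, was listed much lower, at 4.80 CPM per kilobase. The lowest of the 36 genes was Ppara at 0.37 CPM per kilobase, next to Fabp5 at 0.425 and Ppargc1a at 0.476 CPM per kilobase. Acaa1a has a near-identical copy, Acaa1b, Fabp5 resembles several processed pseudogenes, and the library kit does not mark strand, so the counts of these genes are uncertain to the extent that reads were shared.

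Promoter windows of GRCm38.p6 from RefSeq, running from 250 bases before to 50 bases after a start, were matched to 32 of the 36 genes (37 windows). The hexamer AGGTCA, to which receptors of the PPAR family and their partners are known to bind, was found on either strand in 6 of the 37 windows (16.2%), those of Acadm, Acadvl, Acsl6, Cd36, Echs1 and Phyh, against 16.3% of all 32851 windows. The direct repeat AGGTCANAGGTCA with up to 2 mismatches was found in 3 windows (8.11%), those of Cd36, Echs1 and Etfa, against 3.86% of all windows, and with up to 1 mismatch in 0 windows of these genes against 0.554% of all. The GC box GGGCGG was found in 28 of 37 windows (75.7%) against 35.7% of all. A direct repeat holds 2 hexamers, so the first 2 motifs overlap. Windows are printed for 3 genes whose levels differed between diets, Acadvl at chr11:70015379-70015678 (minus strand), Cd36 at chr5:17835847-17836146 (minus strand) and Phyh at chr2:4918746-4919045 (plus strand), with matches in capitals. Cd36 has a hexamer at position -228 and a repeat with 2 mismatches at position -63, Acadvl has a hexamer at position -87, and Phyh has a hexamer at position 37, each counted from the start. A match is a match of letters only.
Acadvl: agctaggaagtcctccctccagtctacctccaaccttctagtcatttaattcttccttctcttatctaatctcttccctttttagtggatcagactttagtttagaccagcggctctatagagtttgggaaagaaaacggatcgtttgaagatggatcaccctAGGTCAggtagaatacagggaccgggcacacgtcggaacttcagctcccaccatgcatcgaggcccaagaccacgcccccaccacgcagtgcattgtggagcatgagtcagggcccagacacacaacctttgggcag
Cd36: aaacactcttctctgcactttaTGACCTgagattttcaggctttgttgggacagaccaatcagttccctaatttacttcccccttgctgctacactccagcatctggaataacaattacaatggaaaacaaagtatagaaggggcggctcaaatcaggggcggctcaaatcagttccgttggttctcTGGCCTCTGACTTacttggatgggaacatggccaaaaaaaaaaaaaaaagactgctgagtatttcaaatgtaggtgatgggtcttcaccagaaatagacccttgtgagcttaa
Phyh: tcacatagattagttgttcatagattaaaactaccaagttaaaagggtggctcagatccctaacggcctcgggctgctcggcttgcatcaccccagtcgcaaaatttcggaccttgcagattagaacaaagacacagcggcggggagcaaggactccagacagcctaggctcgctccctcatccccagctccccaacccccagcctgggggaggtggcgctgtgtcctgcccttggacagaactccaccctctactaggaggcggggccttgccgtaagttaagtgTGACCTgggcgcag

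The trifunctional protein genes lie head to head. The starts of Hadha and Hadhb are 273 bases apart, and their windows share 228 bases. The window of Hadha at chr5:30154931-30155230 (minus strand) is printed because the levels of the 2 genes are compared below, with the shared bases in capitals.
Hadha: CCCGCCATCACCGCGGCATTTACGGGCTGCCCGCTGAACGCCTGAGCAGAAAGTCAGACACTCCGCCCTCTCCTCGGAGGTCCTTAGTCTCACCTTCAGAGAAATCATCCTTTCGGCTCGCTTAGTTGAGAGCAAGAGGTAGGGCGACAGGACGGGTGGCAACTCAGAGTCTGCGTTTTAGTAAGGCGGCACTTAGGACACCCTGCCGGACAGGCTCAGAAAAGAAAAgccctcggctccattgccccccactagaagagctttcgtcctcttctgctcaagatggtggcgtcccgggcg

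The first comparison asked how the genes differed between HFHS and RC at each day, as the mean over the 6 strains. At least 1 mitochondrial enzyme was called higher on HFHS at each of the 4 days, with only 1 at day 10. The counts of both classes depended on the treatment of GC content. At day 2, 8 of the 13 mitochondrial enzymes rose and 0 fell, while 2 of the 8 peroxisomal enzymes, Ehhadh and Phyh, rose and 1, Acot8, fell (edgeR's quasi-likelihood test, adjusted p under 0.05 over all genes tested). Over all 36 genes the counts were 14 higher and 3 lower, where 18.5% of all genes tested were called higher and 22.5% lower. By limma on the log2 values that the authors deposited, the day 2 counts were 6 higher and 7 lower, and the shares of all genes for that fit are not given here. At day 10, 2 genes rose and 0 fell (background 0.412% and 0.533%), at day 30, 3 rose and 0 fell (4.40% and 5.53%), and at day 90, 6 rose and 0 fell (9.78% and 6.79%). The share of the 36 genes called higher was thus above the share of all genes at days 2, 10, 30 and 90, although at days 10 and 30 it rested on 2 and 3 genes.

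The median log2 fold change of the 13 mitochondrial enzymes was 0.15 at day 2, 0.09 at day 10, 0.05 at day 30 and 0.03 at day 90, beside medians over all genes of -0.01, 0.00, -0.01 and 0.01. For the 8 peroxisomal enzymes it was -0.04, 0.01, 0.04 and 0.02 at the same days. With the GC offset the mitochondrial medians were 0.08, 0.06, 0.11 and 0.08, and the peroxisomal medians were 0.02, 0.02, 0.05 and 0.04. The mitochondrial median stood above the peroxisomal one at each day without and with the offset. Within the bound the mitochondrial medians were 0.17, 0.07, 0.06 and 0.04 and the peroxisomal medians were 0.01, 0.03, 0.04 and 0.04, so that the classes had the same median at day 90 to 2 decimals. No test was made of the difference between the classes.

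**Figure D1:**
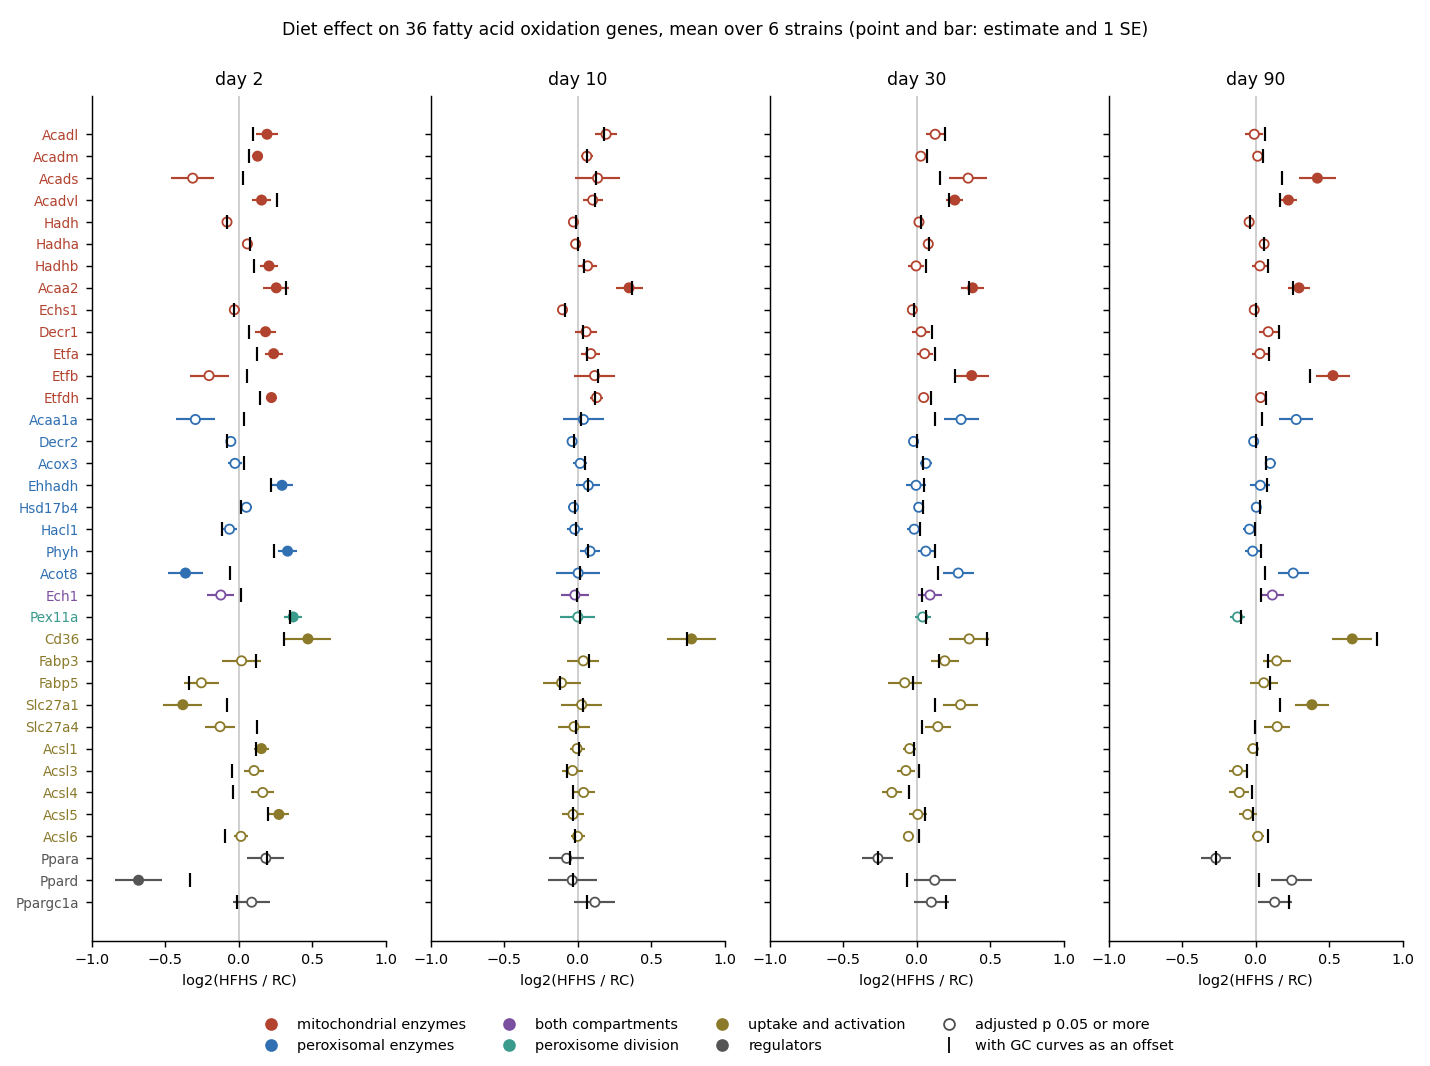
Log2 fold change between HFHS and RC for each of the 36 genes (rows, coloured by class) at each day (panels), as the mean over 6 strains with 1 standard error; filled points have an adjusted p under 0.05 and black ticks give the estimate with GC curves as an offset. Filled points lie to the right of 0 for 14 genes at day 2, 2 at day 10, 3 at day 30 and 6 at day 90, and to the left for 3 genes at day 2.

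The treatment of GC content moved the calls. With the offset, 10 genes rose and 3 fell at day 2, and 3 and 0, 10 and 0, and 9 and 1 did at days 10, 30 and 90, where 9.90%, 1.05%, 4.76% and 9.82% of all genes were called higher and 10.4%, 1.16%, 5.45% and 8.52% lower. Within the bound the counts were 10 and 1, 5 and 0, 16 and 2, and 8 and 2, where 9.18%, 1.55%, 21.1% and 9.66% of all genes were called higher and 8.64%, 2.34%, 17.6% and 9.39% lower. Of the 13 mitochondrial enzymes, 8, 1, 3 and 4 were called higher at days 2, 10, 30 and 90 from all libraries, 5, 2, 8 and 6 with the offset and 8, 4, 7 and 4 within the bound. Of the 8 peroxisomal enzymes, 2, 0, 0 and 0 were called higher from all libraries, 2, 0, 1 and 1 with the offset and 1, 0, 3 and 2 within the bound. Calls shared by all 3 treatments were Acadvl, Acaa2, Etfa, Etfdh, Phyh and Pex11a (higher) and Ppard (lower) at day 2, Acaa2 and Cd36 at day 10, Acadvl, Acaa2 and Etfb at day 30, and Acads, Acadvl, Acaa2, Etfb, Cd36 and Slc27a1 at day 90. Acaa2 was the one gene on this list at all 4 days.

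**Figure D2:**
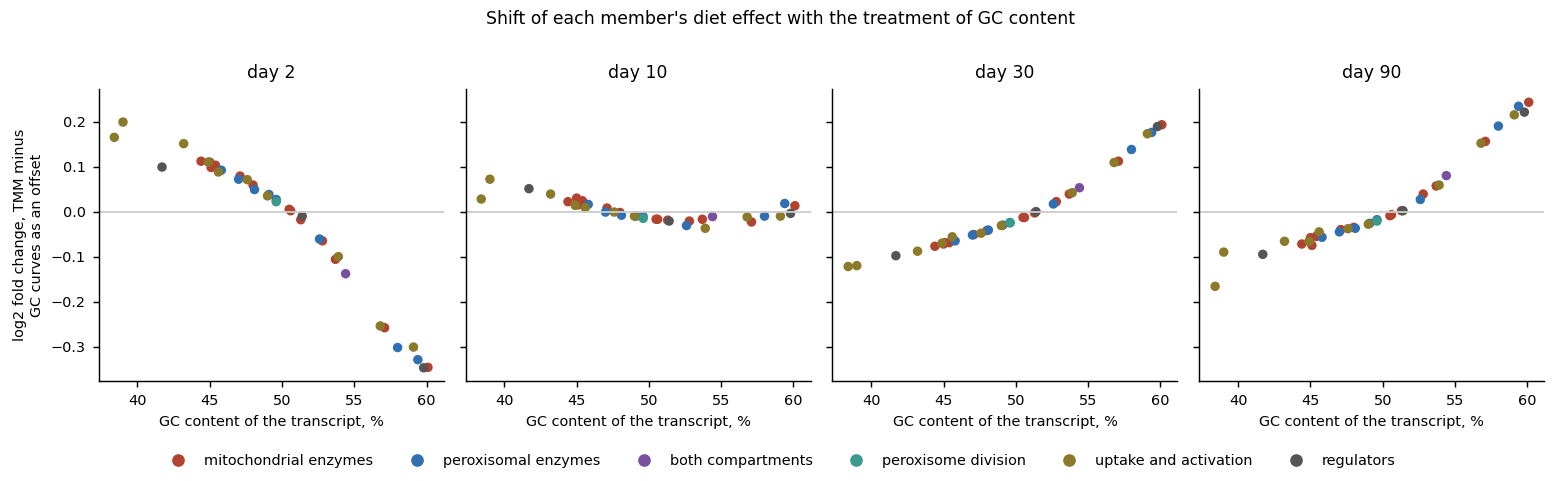
Difference between the log2 fold change from all libraries without and with GC curves as an offset (vertical axis) against the GC content of the transcript in percent (horizontal axis) for each of the 36 genes at each day. The dependence on GC content follows from how the offset is made; at day 2 GC-rich genes such as Ppard (59.8% GC) lie 0.35 below 0, and GC-poor genes such as Cd36 (38.4% GC) lie 0.17 above.

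Acaa2, the thiolase that ends each turn of the mitochondrial cycle, had log2 fold changes of 0.25 (SE 0.088, adjusted p = 0.0151) at day 2, 0.35 (SE 0.092, adjusted p = 0.0288) at day 10, 0.38 (SE 0.077, adjusted p = 0.000184) at day 30 and 0.29 (SE 0.076, adjusted p = 0.00346) at day 90. At day 30 it was higher on HFHS in 6 of 6 strains, by 0.01 in DBA/2J to 0.60 in C57Bl/6J. In C57Bl/6J the lowest, median and highest mouse had 19.1, 22.3 and 25.7 CPM on RC (n = 8) and 25.6, 28.7 and 57.7 CPM on HFHS (n = 8). In BALB/cJ the values were 15.5, 20.8 and 25.2 CPM on RC (n = 8) and 23.0, 28.7 and 32.6 CPM on HFHS (n = 8). The diets barely overlapped in C57Bl/6J, where the top HFHS mouse stood far from its group, and overlapped at their edges in BALB/cJ. In 129S2/SvPas they were 18.3, 30.2 and 34.0 CPM on RC (n = 8) and 32.7, 39.4 and 81.3 CPM on HFHS (n = 7). In A/J they were 17.3, 21.2 and 25.1 CPM on RC (n = 8) and 22.8, 24.8 and 33.2 CPM on HFHS (n = 8). AKR/J overlapped too, with 22.4, 29.8 and 34.2 CPM on RC (n = 8) and 28.8, 32.2 and 42.4 CPM on HFHS (n = 8). DBA/2J had a lower median on HFHS, with 21.8, 26.1 and 33.2 CPM on RC (n = 8) and 23.5, 24.5 and 29.6 CPM on HFHS (n = 8). No single strain at day 30 passed the test for Acaa2 (adjusted p from 0.0769 to 1), so the call rests on the mean over strains.

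Acadvl, which takes the first step on very long chains in mitochondria, had log2 fold changes of 0.15 (SE 0.065, adjusted p = 0.0453) at day 2, 0.26 (SE 0.057, adjusted p = 0.000684) at day 30 and 0.22 (SE 0.056, adjusted p = 0.00287) at day 90, and 0.10 (adjusted p = 0.653) at day 10. At day 30 the HFHS mice lay above all RC mice without overlap in 4 strains. In C57Bl/6J the lowest, median and highest values were 64.2, 66.5 and 69.1 CPM on RC (n = 8) and 72.8, 74.6 and 95.6 CPM on HFHS (n = 8). BALB/cJ had 68.8, 73.3 and 78.9 CPM on RC (n = 8) and 83.2, 87.5 and 93.7 CPM on HFHS (n = 8). AKR/J had 63.5, 68.7 and 71.2 CPM on RC (n = 8) and 78.3, 79.5 and 83.4 CPM on HFHS (n = 8). The diets were thus separate by a small margin in these strains, and they were separate too in 129S2/SvPas, with 42.4, 69.7 and 75.1 CPM on RC (n = 8) and 76.4, 80.9 and 106 CPM on HFHS (n = 7). At day 30 no more than 0.636% of all genes lay above without overlap in any of these 4 strains. A/J overlapped, with 61.9, 68.8 and 75.1 CPM on RC (n = 8) and 71.3, 76.6 and 84.7 CPM on HFHS (n = 8), as did DBA/2J, with 81.4, 87.1 and 91.9 CPM on RC (n = 8) and 86.2, 89.9 and 97.6 CPM on HFHS (n = 8). The day 2 call of Acadvl was lost without single mice (log2 fold change 0.14 to 0.15), was 0.26 (adjusted p = 1.84e-07) with the GC offset and was 0.28 (adjusted p = 5.61e-10) within the bound.

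**Figure D3:**
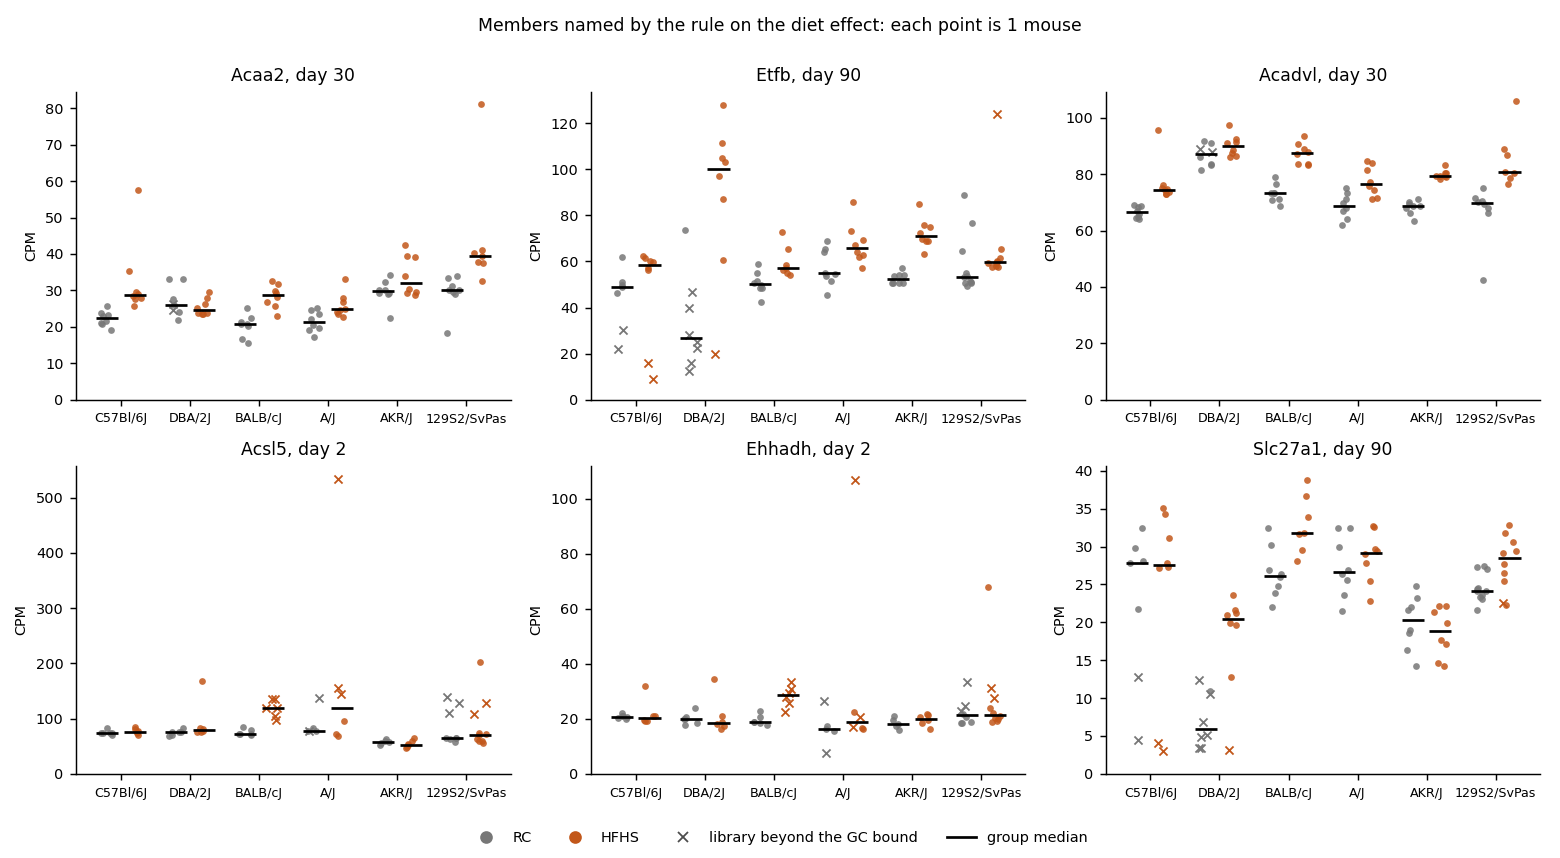
CPM in each mouse (points; crosses are libraries beyond the GC bound; lines are group medians) on RC and HFHS in the 6 strains, for Acaa2, Acadvl, Etfb, Slc27a1, Acsl5 and Ehhadh at the day given above each panel. Acadvl at day 30 shows no overlap of the diets in C57Bl/6J, BALB/cJ, AKR/J and 129S2/SvPas, while Acsl5 and Ehhadh at day 2 each hold 1 A/J mouse on HFHS at 533 and 107.02 CPM.

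The electron transfer genes Etfa and Etfb, the subunits of electron transfer flavoprotein, and Etfdh, the enzyme that hands its electrons to ubiquinone, were called at different days. Etfdh rose by 0.22 (SE 0.040, adjusted p = 7.09e-06) and Etfa by 0.24 (SE 0.062, adjusted p = 0.0018) on the log2 scale at day 2, each in 5 of 6 strains. Etfb rose by 0.37 (SE 0.12, adjusted p = 0.0242) at day 30 and by 0.53 (SE 0.12, adjusted p = 0.000478) at day 90, each in 6 of 6 strains; at day 2 it was -0.20 (adjusted p = 0.205) in all libraries and 0.26 (adjusted p = 0.0006) within the bound. At day 90 the RC mice of AKR/J had 50.6, 52.3 and 57.1 CPM (n = 8) and the HFHS mice had 63.2, 71.1 and 85.03 CPM (n = 8), with no overlap. In that strain and day 0.655% of all genes lay above on HFHS without overlap, and Etfb did not pass the test for that strain and day. DBA/2J had 12.5, 26.6 and 73.5 CPM on RC (n = 8) and 19.7, 100.1 and 127.9 CPM on HFHS (n = 8), a log2 fold change of 1.70 (adjusted p = 4.12e-07). In DBA/2J, 7 of the 8 RC libraries and 1 of the 8 HFHS libraries were beyond the GC bound, so diet and GC content cannot be told apart in those groups. The other 4 strains overlapped: medians on RC and HFHS were 50.3 and 57.2 CPM in BALB/cJ, 54.8 and 65.7 CPM in A/J, 53.1 and 59.6 CPM in 129S2/SvPas, and 48.98 and 58.5 CPM in C57Bl/6J. The mean at day 90 was 0.37 (adjusted p = 3.34e-07) with the offset and 0.29 (adjusted p = 3.5e-05) within the bound, where DBA/2J on RC is left with 1 library. Deviations of Etfb from its group means followed the summed level of 8 beta cell markers (r = 0.82 over the 301 libraries within the bound, which share that sum's depth and scaling); in bulk islets, fewer cells of a type and less RNA per cell cannot be told apart, and the part of cell makeup in this result was not tested.

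The remaining mitochondrial dehydrogenases, hydratase and reductase showed smaller or less steady differences. At day 2 Hadhb rose by 0.20 (adjusted p = 0.00652), Acadl, which acts on long chains, by 0.19 (adjusted p = 0.0263), Decr1, which handles unsaturated chains, by 0.18 (adjusted p = 0.0356) and Acadm, which acts on medium chains, by 0.13 (adjusted p = 0.00524) on the log2 scale. None of these 4 passed at day 2 with the GC offset, where the log2 fold changes were 0.10, 0.09, 0.07 and 0.07, and Acadm did not pass within the bound either (0.07). Acads, which acts on short chains, rose by 0.42 (adjusted p = 0.0137) at day 90 in 6 of 6 strains; this was 0.18 with the offset and 0.25 within the bound, each past the test. Hadha, Hadh and Echs1 passed at no day in all libraries. Hadha passed with the offset at days 2 and 30 by 0.08 at each, and within the bound at day 30 by 0.08. Hadh, the highest of the 36 genes, was 0.12 lower at day 90 within the bound (log2 fold change -0.12, adjusted p = 0.0026) and -0.05 in all libraries.

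Of the peroxisomal genes, Phyh rose by 0.33 (SE 0.062, adjusted p = 1.99e-05) at day 2, in 5 of 6 strains, and did not pass at the later days. Pex11a, which drives peroxisome division, rose by 0.37 (SE 0.062, adjusted p = 1.53e-06) at day 2, in 4 of 6 strains, and by 0.35 with the offset and 0.21 within the bound. Ehhadh, the bifunctional enzyme of the peroxisomal cycle, rose by 0.29 (SE 0.078, adjusted p = 0.00199) at day 2 in 6 of 6 strains. In A/J its lowest, median and highest values were 7.57, 16.2 and 26.3 CPM on RC (n = 5) and 16.5, 18.8 and 107.02 CPM on HFHS (n = 6). The medians of the 2 diets were close in A/J, and 1 mouse on HFHS stood apart. Medians on RC and HFHS were 20.8 and 20.2 CPM in C57Bl/6J, 19.9 and 18.5 CPM in DBA/2J, 18.9 and 28.6 CPM in BALB/cJ, 18.1 and 20.1 CPM in AKR/J and 21.3 and 21.5 CPM in 129S2/SvPas. The medians of C57Bl/6J and DBA/2J were thus lower on HFHS although their fitted differences were above 0 (0.11 and 0.05). BALB/cJ had the widest gap between medians, and all of its 6 HFHS libraries were beyond the GC bound. Within the bound Ehhadh was 0.18 (adjusted p = 0.124).

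The remaining peroxisomal enzymes were seldom called. Acot8, a thioesterase, fell by 0.36 (adjusted p = 0.0114) at day 2 in all libraries, but its log2 fold change was -0.06 with the offset and 0.01 within the bound. Acaa1a, the peroxisomal thiolase, passed at no day in all libraries and was 0.30 (adjusted p = 1.18e-10) at day 30 within the bound. Acox3, an oxidase that opens the cycle on branched chains, was 0.10 at day 90 (adjusted p = 0.0612) in all libraries, and passed there with the offset (0.07) and within the bound (0.11). Decr2 passed once, with the offset at day 2 (log2 fold change -0.08, adjusted p = 0.0291). Hsd17b4, the other bifunctional enzyme, and Hacl1, a lyase that shortens branched chains, passed at no day under any of the 3 treatments, and Ech1 passed at day 30 within the bound alone (0.09, adjusted p = 0.0165).

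Among the genes of uptake and activation, Cd36, the fatty acid translocase, had the largest mean differences. It rose by 0.47 (SE 0.16, adjusted p = 0.0126) at day 2, 0.77 (SE 0.17, adjusted p = 0.00221) at day 10 and 0.66 (SE 0.14, adjusted p = 0.000195) at day 90 on the log2 scale, and was 0.36 (adjusted p = 0.0754) at day 30. With the offset Cd36 was 0.48 at day 30, where 1 of the 10 genes of this class was called higher. Within the bound 4 of the 10 were called higher at that day, and the largest value was 0.37. At day 2 the BALB/cJ mice on HFHS, all beyond the GC bound, had 28.1, 78.7 and 146.1 CPM (n = 6) against 5.56, 8.79 and 20.1 CPM on RC (n = 6), while AKR/J had 5.72, 8.65 and 10.6 CPM on HFHS (n = 6) against 10.3, 17.4 and 21.3 CPM on RC (n = 5). The 2 strains thus stood on opposite sides, and within the bound, without BALB/cJ, Cd36 at day 2 was 0.20 (adjusted p = 0.473). At day 10 A/J had 4.70, 8.62 and 24.6 CPM on RC (n = 4) and 18.2, 29.98 and 78.6 CPM on HFHS (n = 6), with overlap. At day 90, 129S2/SvPas had 5.52, 12.8 and 24.5 CPM on RC (n = 11) and 13.9, 31.5 and 49.7 CPM on HFHS (n = 10), a log2 fold change of 1.06 (adjusted p = 0.0487 by edgeR's quasi-likelihood test).

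Cd36 is also a gene of fat cells, macrophages and endothelium, so their markers were read beside it. Of 7 adipocyte markers, 6 were tested and 4 were called higher on HFHS at day 2, 0 at day 10, 1 at day 30 and 1 at day 90. Their summed level had medians of 24.4 CPM on HFHS and 17.5 CPM on RC at day 2, 21.3 and 16.2 CPM at day 10, 21.7 and 15.3 CPM at day 30, and 26.3 and 20.1 CPM at day 90. In the BALB/cJ mice at day 2 the sum had a median of 89.5 CPM and a minimum of 32.3 CPM on HFHS and ran from 11.9 to 18.7 CPM on RC. The defining fat cell genes were at 0 in many libraries: Adipoq in 200, Cfd in 203, Plin1 in 172 and Lep in 305 of all libraries. Fabp4 had a median of 19.5 CPM, against 0.25 CPM for Plin4 and 0.092 CPM for Cidec. In a typical library the adipocyte sum was thus mostly the level of 1 gene, Fabp4. At day 2, 5 of 5 tested macrophage, 5 of 6 endothelial and 5 of 8 beta cell markers were called lower on HFHS, where 22.5% of all genes were, and 0 of each at day 10. At day 30, 5 of 6 stellate and fibroblast markers were called lower, where 5.53% of all genes were. The part of these cell types in the day 2 and day 30 differences was not tested. Deviations of Cd36 from its group means correlated with the adipocyte sum (r = 0.67) and the macrophage sum (r = 0.71) within the bound, over 301 libraries. The part of these cells in the Cd36 result was not tested.

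Slc27a1, the fatty acid transport protein FATP1, rose by 0.38 (SE 0.12, adjusted p = 0.0133) at day 90 in 6 of 6 strains, and fell by 0.38 (adjusted p = 0.016) at day 2, where the offset gave -0.08 and the bound -0.02. At day 90 DBA/2J had 3.37, 5.93 and 12.4 CPM on RC (n = 8) and 3.12, 20.4 and 23.6 CPM on HFHS (n = 8), in the same RC group of which 7 libraries were beyond the GC bound. BALB/cJ had 22.0, 26.2 and 32.5 CPM on RC (n = 8) and 28.1, 31.9 and 38.8 CPM on HFHS (n = 7), and 129S2/SvPas had 21.6, 24.1 and 27.4 CPM on RC (n = 11) and 22.2, 28.5 and 32.8 CPM on HFHS (n = 10). Both strains overlapped, with the HFHS median higher. The remaining medians on RC and HFHS were 27.8 and 27.6 CPM in C57Bl/6J, 26.6 and 29.2 CPM in A/J, and 20.3 and 18.8 CPM in AKR/J, so that the AKR/J median pointed the other way than its fitted difference of 0.08. The mean over strains was 0.17 (adjusted p = 0.00386) with the offset and 0.27 (adjusted p = 0.000206) within the bound.

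Acsl5, an acyl-CoA synthetase, rose by 0.27 (SE 0.071, adjusted p = 0.00179) at day 2 in 6 of 6 strains, and Acsl1, another, by 0.15 (adjusted p = 0.00898). In A/J the lowest, median and highest Acsl5 values were 77.6, 78.3 and 136.6 CPM on RC (n = 5) and 67.8, 119.8 and 533 CPM on HFHS (n = 6). BALB/cJ had 70.5, 72.2 and 84.03 CPM on RC (n = 6) and 96.97, 119.3 and 136.3 CPM on HFHS (n = 6), with no overlap. In that strain and day 30.4% of all genes lay above on HFHS without overlap and 15.1% below. Libraries beyond the GC bound made up 2 and 3 of these A/J groups and all 6 of the BALB/cJ HFHS group. Medians on RC and HFHS were 74.6 and 76.2 CPM in C57Bl/6J, 75.6 and 78.9 CPM in DBA/2J, 56.95 and 52.95 CPM in AKR/J and 65.3 and 70.7 CPM in 129S2/SvPas. The AKR/J median was lower on HFHS although the fitted difference was 0.07. Within the bound Acsl5 was 0.13 (adjusted p = 0.117) and Acsl1 was 0.12 (adjusted p = 0.0552). Acsl3, Acsl4 and Acsl6, further synthetases, and Fabp3, Fabp5 and Slc27a4 passed at no day in all libraries; Acsl4 was lower at day 30 within the bound (log2 fold change -0.15, adjusted p = 9.79e-06), where Slc27a4 (0.14) and Fabp3 (0.19) were higher, and Acsl3 was lower there at day 90 (-0.11).

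Of the regulators, Ppard, a nuclear receptor of the PPAR family, fell by 0.68 (SE 0.16, adjusted p = 0.000625) at day 2, and its size followed the treatment of GC content: -0.34 (adjusted p = 0.000455) with the offset and -0.14 (adjusted p = 0.029) within the bound. In 1 strain, BALB/cJ, it was -3.37 at day 2, where the HFHS libraries were all beyond the bound. At days 30 and 90 the mean of Ppard was 0.12 and 0.25 in all libraries and -0.07 and 0.025 with the offset. It passed at neither day in these 2 treatments. Ppara, the receptor best known for switching on fatty acid oxidation in liver, was lower in 5 of 6 strains at days 30 and 90, with means of -0.26 (adjusted p = 0.0831) and -0.27 (adjusted p = 0.052); with the offset the day 90 value was -0.27 (adjusted p = 0.0478), and within the bound it was -0.18 (adjusted p = 0.299). At day 30 Ppara was -0.26 with the offset, where 0 of the 3 regulators passed. Within the bound at that day 1 of the 3 was called lower, at -0.27, and 1 higher. Ppargc1a, a coactivator of mitochondrial genes, passed at no day in the mean over strains in all libraries or with the offset.

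The next comparison asked whether the diet difference varied between strains, with the days averaged. In single strains 37 pairs of a gene and a strain were called higher and 12 lower (9.65% and 9.06% of all pairs), and at single days in single strains 57 were higher and 40 lower (5.25% and 5.15%). The difference varied for 24 of the 36 genes (joint test over strains, adjusted p under 0.05), where 68.2% of all genes passed, so the share of these genes was close to that of all genes. With the offset 19 passed (56.4% of all genes) and within the bound 23 (56.4%). The smallest adjusted p among the 36 was that of Ppara (1.56e-06), which rose on HFHS in 129S2/SvPas by 0.50 (SE 0.13, adjusted p = 0.00744) and fell in AKR/J by 0.62 (SE 0.14, adjusted p = 0.000391) and in DBA/2J by 0.47 (SE 0.14, adjusted p = 0.00497). Within the bound these were 0.48, -0.61 and -0.37, the last with an adjusted p of 0.0982. By limma voom with sample quality weights the difference of Ppara in 129S2/SvPas was -0.008. Acadvl (adjusted p = 0.148), Echs1, Hsd17b4, Hadh and Ech1 were among the 12 genes for which the strains did not differ past the threshold.

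**Figure D4:**
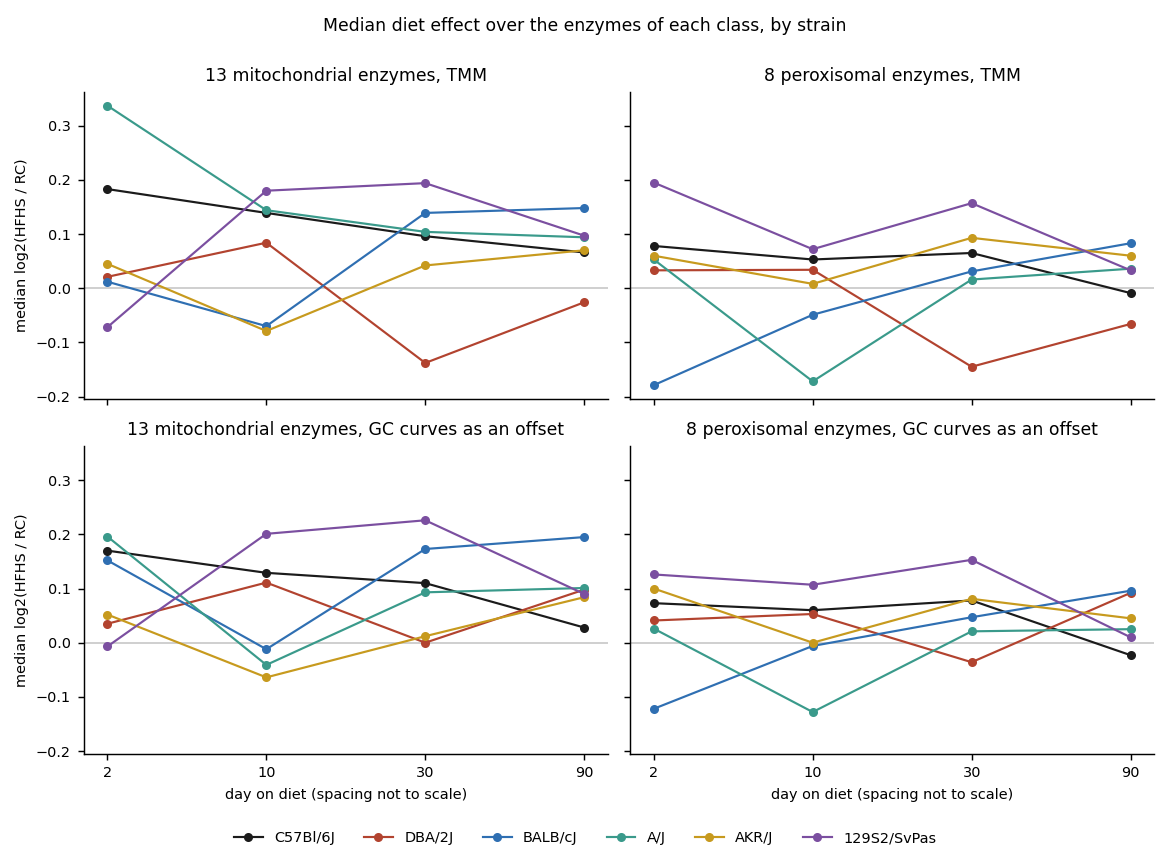
Median log2 fold change between HFHS and RC over the 13 mitochondrial enzymes (left) and the 8 peroxisomal enzymes (right) in each strain (lines) at each day, from all libraries (top) and with GC curves as an offset (bottom); no error is drawn because the enzymes of a class are not replicates. The spread between strains at day 2 narrows from the top to the bottom panels.

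In 129S2/SvPas, 8 genes were called higher on HFHS and 0 lower (background 3.14% and 2.55%), and all 8 were called under each of the 3 treatments. They were Acaa2 (0.51, adjusted p = 3.21e-05), Acadvl (0.30, adjusted p = 0.00158) and Hadha (0.19, adjusted p = 3.15e-05) in mitochondria, Ehhadh (0.28, adjusted p = 0.0243) and Acox3 (0.18, adjusted p = 0.0102) in peroxisomes, Cd36 (0.54, adjusted p = 0.0387), and the regulators Ppara and Ppargc1a (0.47, adjusted p = 0.0262). The Cd36 call was lost on leaving out any of 3 RC mice of day 10, with values from 0.51 to 0.53. Acaa2, Ehhadh and Ppara had their highest mean of the 48 groups in this strain on HFHS at day 10 (54.1, 35.3 and 4.33 CPM). Their highest single values in the series were 152.1, 111.4 and 15.97 CPM. Those values came from libraries within the bound, which all 3 treatments keep. The part of single mice in these highest means was not tested. Within the bound 10 of the 13 mitochondrial enzymes rose in this strain and 0 fell (background 4.88% and 3.33%). Of its 18 mice at day 2, 5 libraries matched C57Bl/6J, and at that day alone 7 of the 36 genes were called lower and 3 higher (background 15.3% and 5.39%); 6 of the 7, Acadl, Decr1, Etfa, Hadhb, Phyh and Ppargc1a, changed sign within the bound, to between 0.18 and 0.41.

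In C57Bl/6J, 1 gene rose, Acaa2 (0.47, adjusted p = 0.00404), and 0 fell (background 0.212% and 0.158%). At day 2, 6 genes in this strain, Acadl, Acadvl, Acaa2, Etfa, Phyh and Cd36, lay above without overlap on HFHS, against 0.83% of all genes, and at day 10 Acadl, Acadvl and Acaa2 did, against 0.806%. In AKR/J at day 2, 5 genes, Acadl, Acads, Acaa2, Hacl1 and Slc27a1, lay below without overlap on HFHS, and 0 lay above. Of all genes 9.77% lay below there and 1.99% above, so the count below was not far from the share of all genes. By range alone, Acadl and Acaa2 were separate in opposite directions in C57Bl/6J and AKR/J at day 2. Neither gene passed the test in these strains at that day from all libraries. There 0 of the genes followed were called higher or lower in C57Bl/6J. In AKR/J 0 were called lower and 1, Etfdh, higher. A difference in direction between these 2 strains at day 2 was thus not shown by the test. All C57Bl/6J libraries at days 2 and 10 and all AKR/J libraries at day 2 were within the GC bound. In DBA/2J at day 30, where 2 of 8 RC libraries were beyond it, 11 genes lay below, among them Acadm, Hadhb, Echs1, Decr1 and Etfdh, and 6 above, against 12.3% and 10.7% of all genes. In A/J, 12 genes rose and 0 fell (background 17.1% and 6.48%), of which Acaa2 (0.44), Cd36 (1.15), Pex11a (0.25) and Acsl1 (0.20) were called under all 3 treatments. Within the bound Acaa2 in A/J was 0.63 (adjusted p = 8.56e-08).

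In BALB/cJ, 7 genes rose and 4 fell (background 10.1% and 13.7%). Cd36 (1.19), Acadl (0.42), Acaa2 (0.38), Decr1 (0.32) and Hacl1 (0.21) rose under all 3 treatments, at 0.85, 0.27, 0.48, 0.18 and 0.18 within the bound. None of the 4 calls lower, Ppard, Slc27a4, Decr2 and Acot8, held within the bound. The values within the bound leave out day 2 in this strain, so the 2 sets of values differ in days as well as in libraries. At day 2 alone 15 genes were called higher and 14 lower in BALB/cJ (background 34.5% and 32.1%), in the group whose HFHS libraries were all beyond the bound.

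In DBA/2J, 7 genes rose and 6 fell (background 19.9% and 21.2%). Acads (0.75), Etfb (0.72), Acot8 (0.66) and Acadvl (0.25) rose under all 3 treatments, and their values with the offset were 0.20, 0.41, 0.25 and 0.15. Acsl4 fell by 0.29, by 0.08 with the offset and by 0.22 within the bound. In AKR/J, 2 genes rose and 2 fell (background 7.41% and 10.3%), all of them under the 3 treatments: Etfdh (0.20, adjusted p = 0.000468), Acadvl (0.22, adjusted p = 0.0246), Hacl1 (-0.16, adjusted p = 0.0493) and Ppara. The Hacl1 call was lost on leaving out any of 4 RC mice of day 2, with values from -0.15 to -0.16. Acadvl was thus called higher in 3 strains, DBA/2J, AKR/J and 129S2/SvPas, and Acaa2 in C57Bl/6J, BALB/cJ, A/J and 129S2/SvPas.

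The diet difference varied between days for 14 of the 36 genes (joint test over days), where 47.9% of all genes passed, and for 4 with the offset (25.5%) and 11 within the bound (40.5%). The smallest adjusted p was that of Pex11a (9.82e-06), which was 0.37 at day 2 and -0.12 at day 90; with the offset its adjusted p was 5.06e-05, and within the bound it was 0.0878. Slc27a1, Ppard and Etfb passed under all 3 treatments. Acaa2 (adjusted p = 0.76) and Acadvl (adjusted p = 0.367) did not pass, so a difference of their diet effect between days was not shown.

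On RC alone, the strains differed in several of these genes. Among pairs of a gene and a strain set against the mean of the other 5, 25 passed with a difference of 0.5 log2 units or more either way, 13 higher and 12 lower. In C57Bl/6J 5 were higher and 1 lower (background 6.49% and 5.05%), in DBA/2J 2 and 4 (5.15% and 13.3%), in BALB/cJ 1 and 4 (3.47% and 8.19%), in A/J 0 and 2 (8.38% and 5.27%), in AKR/J 2 and 0 (11.3% and 3.96%), and in 129S2/SvPas 3 and 1 (6.56% and 4.35%). The range between the highest and lowest strain mean within the bound had a median of 0.37 log2 units over the mitochondrial and 0.31 over the peroxisomal enzymes, beside 0.38 over all genes with at least 5 CPM. The widest among enzymes were Acads (1.16), Acadl (0.98) and Acaa1a (0.92), and the narrowest was Hsd17b4 (0.15).

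Acads ran from lowest in BALB/cJ to highest in AKR/J. Within the bound its lowest, median and highest values on RC were 5.29, 9.24 and 14.6 CPM in BALB/cJ (n = 26), 7.22, 15.2 and 23.3 CPM in DBA/2J (n = 18) and 17.5, 21.3 and 28.2 CPM in AKR/J (n = 27). BALB/cJ and AKR/J did not overlap. In C57Bl/6J they were 12.4, 15.2 and 17.8 CPM (n = 25), in A/J 9.56, 18.9 and 24.2 CPM (n = 22) and in 129S2/SvPas 8.92, 17.99 and 23.0 CPM (n = 29), so these 3 strains lay between and overlapped. Against the other strains, BALB/cJ was lower by a log2 fold change of -0.81 (SE 0.14, adjusted p = 1.72e-07) in all libraries and -0.82 within the bound.

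Acaa1a was high in C57Bl/6J and 129S2/SvPas and low in DBA/2J and BALB/cJ. Within the bound its values on RC were 35.9, 40.3 and 47.02 CPM in C57Bl/6J (n = 25), 18.5, 42.9 and 53.9 CPM in 129S2/SvPas (n = 29) and 17.1, 24.1 and 28.03 CPM in BALB/cJ (n = 26). C57Bl/6J did not overlap with BALB/cJ, and 129S2/SvPas did. In DBA/2J they were 13.1, 24.8 and 29.5 CPM (n = 18), in A/J 16.6, 27.2 and 32.8 CPM (n = 22) and in AKR/J 22.1, 28.04 and 35.1 CPM (n = 27), so these 3 strains stayed below the lowest C57Bl/6J mouse. The log2 fold change against the other strains was 0.55 (adjusted p = 2.79e-05) in C57Bl/6J and 0.56 (adjusted p = 7.45e-06) in 129S2/SvPas.

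Ech1 was low in 129S2/SvPas. Within the bound its values on RC were 21.7, 29.02 and 40.1 CPM in 129S2/SvPas (n = 29) and 37.5, 41.7 and 47.1 CPM in C57Bl/6J (n = 25), while the medians of the other 4 strains lay between 49.8 CPM in DBA/2J and 54.4 CPM in A/J. The difference of 129S2/SvPas from the other strains was -0.80 (SE 0.086, adjusted p = 3.77e-17) in all libraries and -0.78 within the bound. Ppard, by contrast, had a range of strain means of 0.98 over all libraries and 0.52 within the bound. Its lowest, median and highest values within the bound were 20.4, 35.3 and 46.3 CPM in DBA/2J (n = 18), the lowest strain, and 39.8, 46.3 and 52.8 CPM in C57Bl/6J (n = 25), the highest; in all 27 DBA/2J libraries on RC the lowest value was 2.07 CPM and the median 25.2 CPM.

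**Figure D5:**
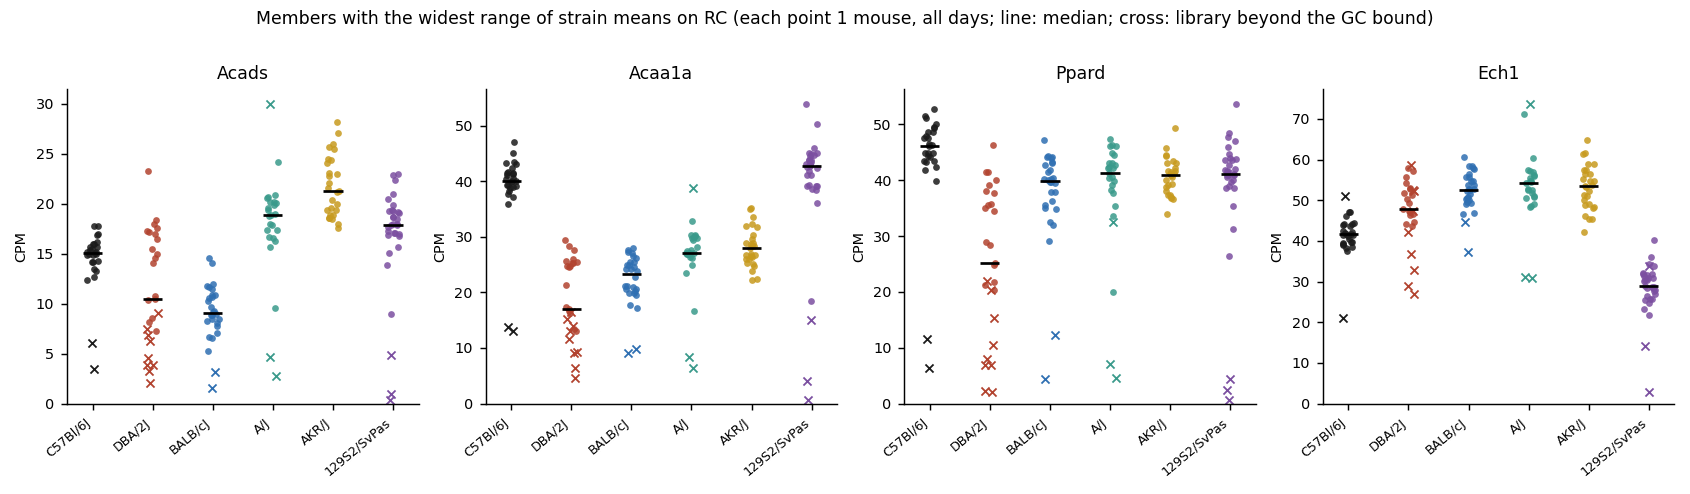
CPM on RC in each mouse (points, all days together; crosses are libraries beyond the GC bound; lines are medians) by strain for Acads, Acaa1a, Ppard and Ech1. Ech1 is lowest in 129S2/SvPas (median 28.9 CPM over all its 32 libraries), and the lowest points of Ppard are crosses.

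Other genes that differed between strains on RC in all 3 treatments included Acadl, higher in C57Bl/6J (0.54) and BALB/cJ (0.59) and lower in DBA/2J (-0.54). Its median within the bound was 45.9 CPM in C57Bl/6J and 44.6 CPM in BALB/cJ against 23.1 CPM in DBA/2J, and neither of the former 2 strains overlapped with DBA/2J. Ppargc1a was higher in C57Bl/6J (0.78) and DBA/2J (0.80) and lower in BALB/cJ (-1.32), whose median of 1.24 CPM within the bound was the lowest. Fabp5, a binding protein, was higher in C57Bl/6J (1.47) and lower in BALB/cJ (-0.82), at medians of 1.25 and 0.24 CPM. Fabp3, the heart-type binding protein, split the strains into 3 high and 3 low, with 0.67 in 129S2/SvPas, 0.66 in AKR/J and 0.72 in DBA/2J against -0.69 in C57Bl/6J, -0.67 in BALB/cJ and -0.69 in A/J. Ppara was higher in C57Bl/6J (0.69) and lower in A/J (-0.57).

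Time on RC was compared between its ends. Between day 2 and day 90, 5 were higher and 3 lower at the later day (23.2% of all genes passed, and 9.23% were higher), a share of these genes close to that of all genes. Acsl6 (0.38, adjusted p = 4.81e-14), Ppargc1a (0.35, adjusted p = 0.0274), Pex11a (0.29, adjusted p = 2.14e-05), Acox3 (0.14, adjusted p = 0.011) and Acsl1 (0.13, adjusted p = 0.0256) rose and Fabp5 fell by 0.53 (adjusted p = 7e-05) under all 3 treatments. Hadh (-0.11) and Decr2 (-0.08) passed in all libraries and with the offset and not within the bound (-0.02 and -0.02).

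Within groups, the genes varied together to a degree that depended on the libraries used. The median pairwise r of deviations from the group means was 0.27 among mitochondrial enzymes, 0.24 among peroxisomal enzymes and 0.24 between the 2 classes over all libraries, 0.44, 0.19 and 0.30 over the 301 within the bound, and 0.41, 0.36 and 0.32 over all libraries with the GC curves removed. Hadha and Hadhb, whose promoter windows share the capitals printed above, had r = -0.31 over all libraries, 0.30 within the bound and 0.024 with the curves removed. Etfa and Etfb, the subunits of 1 protein, had r = -0.60 over all libraries, 0.39 within the bound and 0.14 with the curves removed. Acads and Acaa1a, at 60.1 and 59.4% GC, had r = 0.98, 0.84 and 0.86 in the same order. Points of these correlations share library, depth and base composition.

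Further genes of the pathway, outside the 36, were read from a second list. Of 16 tested further mitochondrial genes, 6 rose and 1 fell at day 2, and 4 and 0, 6 and 1, and 4 and 1 did at days 10, 30 and 90. Within the bound 10 rose and 1 fell at day 30, where 21.1% of all genes were called higher and 17.6% lower. From all libraries the shares of all genes called higher at the 4 days were 18.5%, 0.412%, 4.40% and 9.78%, and those called lower 22.5%, 0.533%, 5.53% and 6.79%. Cpt1a, which admits long chains to mitochondria, rose by 0.56, 0.74, 0.65 and 0.48 on the log2 scale at days 2, 10, 30 and 90, and Slc25a20, the carnitine carrier it feeds, by 0.30, 0.36, 0.34 and 0.27. Pdk4, which holds back pyruvate oxidation, rose by 0.77, 0.61 and 0.43 at days 2, 10 and 30, with 0.15 (adjusted p = 0.28) at day 90. Acadsb, of branched-chain amino acid breakdown, fell by 0.19 at days 30 and 90, and by 0.10 and 0.12 with the offset.

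Of 24 tested further peroxisomal genes, 9 rose and 4 fell at day 2, and 0 and 0, 3 and 0, and 2 and 0 did at days 10, 30 and 90. The shares of all genes from all libraries are those given above for the further mitochondrial genes. With the offset the day 2 counts were 6 and 1 (9.90% and 10.4% of all genes). Within the bound the counts at days 2, 30 and 90 were 11 and 0, 10 and 4, and 1 and 4. More thus fell than rose at day 90. At these days within the bound 9.18%, 21.1% and 9.66% of all genes were called higher and 8.64%, 17.6% and 9.39% lower. Of 14 genes of regulation and lipid droplets, 5, 3, 4 and 6 rose at days 2, 10, 30 and 90, and 2 fell at day 2. Plin2, a lipid droplet coat protein, rose by 0.32, 0.30 and 0.24 at days 10, 30 and 90, the last being 0.16 (adjusted p = 0.0727) within the bound. Angptl4, a secreted target of PPAR receptors, rose by 0.65, 1.48, 1.04 and 0.95 at the 4 days.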

How the data were processed

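Islet RNA was sequenced from 338 mice with Illumina's TruSeq RNA Sample Prep Kit v2, per the labels' protocols; whether the counting used strand is not given in the sources used here. The submitters' processing notes name TopHat 1.3.3, SAMtools 0.1.16, HTSeq 0.5.3p3, edgeR and the build mm9. The authors deposited whole-number read counts per gene (21382 genes) and a log2 table of 14826 genes, whose values equal log2(count times 1 factor per library plus 1). Groups came from the labels' strain, diet and time.

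Counts were fitted with edgeR 4.0.16 (R 4.3.3; TMM, filterByExpr, 1 mean for each of the 48 groups, robust quasi-likelihood test), with Benjamini-Hochberg adjustment over 16498 genes; calls have an adjusted p under 0.05. The p-values rest on the spread between mice. CPM values are counts divided by the library size. Alternatives used limma 3.58.1 and DESeq2 1.42.0. GC content and transcript lengths came from GENCODE vM21 transcripts (the longest protein-coding one of a gene, matched by symbol) and promoters from RefSeq, both on GRCm38.p6, not mm9, and 21030 genes had a GC value. GC slopes used 10845 genes with at least 5 CPM and the curves a spline with 5 degrees of freedom. All 36 genes are named; values per group are given for up to 6 genes with the smallest p for diet at any day among those with 1 sign in all 6 strains, and up to 4 with the widest range of strain means, at 5 CPM or more. Up to 6 further genes of the pathway were named by the same diet rule, of which 1 is not reported here, and the group values of Cd36, and Angptl4, Fabp1, Fabp2 and Slc27a2, were given after their values were seen. The genes and lists were chosen with earlier results of these data known. The fit was tested on simulated data.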

Additional observations from a re-analysis of the deposited data

Results flagged for a closer look

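The 6 genes with group values gave 70 pairs of a gene and a group of 4 to 10 mice. In 19 of the 70 pairs, 1 mouse had a gap to the nearest other mouse beyond Dixon's 95% limit for the range. Chance gives about 1 in 20 for a single pair. Genes read in the same group share its mice, so the pairs are not independent. The mice are given by their label. For Acaa2 these were 57.7 CPM in 1HF147 (C57Bl/6J, HFHS, day 30), 22.4 CPM in 5RC29 (AKR/J, RC, day 30), 81.3 CPM in 6HF30 (129S2/SvPas, HFHS, day 30) and 18.3 CPM in 6RC25 (129S2/SvPas, RC, day 30). For Acadvl, 3 of the same mice stood apart, with 95.6 CPM in 1HF147, 106.1 CPM in 6HF30 and 42.4 CPM in 6RC25, as did 5HF30 (AKR/J, HFHS, day 30) with 83.4 CPM. For Etfb the mouse was 6HF99 (129S2/SvPas, HFHS, day 90) with 124.02 CPM.

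At day 2, Acsl5 stood apart with 82.3 CPM in 1RC111 (C57Bl/6J, RC), 169 CPM in 2HF111 (DBA/2J, HFHS), 533 CPM in 4HF3 (A/J, HFHS), 136.6 CPM in 4RC6 (A/J, RC) and 202 CPM in 6HF1 (129S2/SvPas, HFHS). Ehhadh stood apart in 3 of these mice, with 34.6 CPM in 2HF111, 107.02 CPM in 4HF3 and 68.0 CPM in 6HF1, and also with 31.8 CPM in 1HF135 (C57Bl/6J, HFHS) and 33.3 CPM in 6RC6 (129S2/SvPas, RC). Of all these libraries, 6HF99, 4HF3, 4RC6 and 6RC6 were beyond the GC bound, and 6RC6 matched another strain.

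The test of whether the diet difference varied between strains passed for 24 genes, where 68.2% of all genes passed (edgeR, adjusted p values). Among mitochondrial enzymes these were Acadl (1.47e-05), Acadm (0.000244), Etfb (0.000474), Acaa2 (0.00107), Hadhb (0.00133), Decr1 (0.00137), Etfdh (0.00266), Hadha (0.0037), Acads (0.0067) and Etfa (0.00696). Among peroxisomal genes they were Hacl1 (1.67e-05), Acot8 (4.4e-05), Pex11a (0.000295), Acaa1a (0.00591) and Acox3 (0.012). In uptake and activation they were Cd36 (1.35e-05), Acsl1 (0.000277), Slc27a4 (0.00267), Acsl4 (0.00861), Acsl3 (0.00929) and Slc27a1 (0.0154), and all 3 regulators passed, Ppara (1.56e-06), Ppard (0.000374) and Ppargc1a (0.044).

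The test of whether the diet difference varied between days passed for 14 genes, where 47.9% of all genes passed: Pex11a (9.82e-06), Slc27a1 (0.000821), Ppard (0.00105), Acot8 (0.00141), Phyh (0.00198), Etfb (0.002), Acads (0.00429), Etfdh (0.00588), Acsl5 (0.00981), Acaa1a (0.0112), Acsl4 (0.0165), Acsl1 (0.03), Ppara (0.0395) and Ehhadh (0.049).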

How the results depend on the processing

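The number of called genes changed with the processing, and the cause was not tested. In place of 17 calls at day 2, 2 at day 10, 3 at day 30 and 6 at day 90, the libraries within the GC bound gave 11, 5, 18 and 10, limma voom with quality weights 26, 10, 18 and 19, the GC offset 10 at days 30 and 90, and leaving out the 9 libraries closest to another strain 10 and 12. Calls over all genes rose as well without the 9 libraries, to 3496 and 5000 of 16465 genes at days 30 and 90. From all libraries they were 1638 and 2733 of 16498. The shares of all genes called by voom, with the replicate block or on the authors' log2 values are not given here, so those counts stand without a background. The 17 calls at day 2 were 14 higher and 3 lower. By voom they were 16 and 10, and with mouse number as a replicate block in 4 strains 13 and 8. On the authors' log2 values they were 6 and 7, so that more fell than rose. Under every other alternative more rose than fell at day 2. In place of a mean of 8.17 genes called per strain and 4.04 per strain and day, voom gave 18.2 and 8.79. In place of 14 genes varying between days, the offset gave 4, leaving out the 9 libraries 22, voom 27 and a fit to the authors' log2 values 9; in place of 8 genes varying with time on RC, leaving out the 9 libraries gave 13 and voom 26. Leaving out each mouse of the groups of 4 or 5 gave 16 to 20 calls at day 2, 2 to 3 at day 10, 8.0 to 8.5 per strain and 4.0 to 4.25 per strain and day, 23 to 26 and 11 to 16 genes varying between strains and days, 4.0 to 4.33 per strain between strains on RC and 8 to 9 genes over time; in 21 of 1189 such fits of single calls a call was lost, for 9 calls in all: Acadvl (0.14 to 0.15) and Decr1 (0.17) at day 2, Acadm in DBA/2J, Decr1 in A/J, Hacl1 in AKR/J, Cd36 in 129S2/SvPas, Etfdh in A/J and in AKR/J at day 2, and Decr2 over time.

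In 4 strains mouse numbers are shared between diets, and the labels do not say whether these numbers pair the mice. Over pairs of the same number the correlation of deviations ran from -0.931 to 0.854 (median 0.039). Of 208 libraries, 38 correlated best with their own number, with no chance value set beside that count. Base composition also enters these correlations, and whether the numbers mark shared handling was not tested. With the number as a replicate block (limma voom, 4 strains), 0 genes were called at day 10, 0 at day 30 and 1 at day 90, with 7.5 per strain and 3.31 per strain and day; the same 4 strains without the block gave 0, 0 and 1, with 6.75 and 3.19, an alternative added after seeing the data. With the block and the GC curves removed, 10, 0, 5 and 3 genes were called at the 4 days, with 7.25 per strain and 2.44 per strain and day.

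Of 207 single calls, 34 values under some alternative had the other sign. Within the bound these were Acot8 at day 2 (0.006), Acot8 (0.10) and Ppard (0.053) in BALB/cJ, Acsl5 in A/J (-0.037), Fabp3 (-0.25) and Pex11a (0.15) in DBA/2J at day 90, and Acsl5 (-0.15) and Etfdh (-0.019) in A/J at day 2. With the offset they were Etfa (0.049) and Slc27a4 (-0.10) in DBA/2J at day 90 and Acadvl in BALB/cJ at day 2 (0.16, and 0.15 with the replicate block as well). Voom reversed Ppara in 129S2/SvPas (-0.008) and Acsl5 (-0.16) and Etfdh (-0.036) in A/J at day 2, and the authors' table Hacl1 in BALB/cJ at day 2 (-0.013). In 129S2/SvPas at day 2, within the bound, without the 9 libraries and by voom, Acadl was 0.30, 0.28 and 0.11, Decr1 0.26, 0.25 and 0.12, Etfa 0.18, 0.18 and 0.15, Hadhb 0.22, 0.22 and 0.20, Phyh 0.25, 0.24 and 0.14, and Ppargc1a 0.41, 0.39 and 0.05. DESeq2's size factors, its Wald test and fits with no filter reversed none of the 207.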

Other observations

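Fabp1 and Fabp2, the fatty acid binding proteins best known from liver and intestine, were measured among the further genes of the pathway. At day 2 Fabp1 had a log2 fold change of 3.52 (SE 1.74, adjusted p = 0.0898, edgeR) and Fabp2 one of 3.50 (SE 1.34, adjusted p = 0.0281), and with the GC offset they were 3.41 (adjusted p = 0.215) and 3.35 (adjusted p = 0.101). Slc27a2, a very-long-chain acyl-CoA synthetase, rose by 0.90 (SE 0.196, adjusted p = 0.000229) at day 2 and did not pass at the later days.

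In AKR/J at day 90, Acadvl (0.38) and Etfdh (0.25) rose and Ppara fell by 0.94 over all libraries. In 129S2/SvPas at day 90 Ppargc1a rose by 1.03.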
